A study of Bos indicus with 5 samples.

Results

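The endothelin system was read in the ampulla, the wide part of the oviduct where fertilization takes place, as 6 genes. They comprised the ligand genes EDN1, EDN2 and EDN3, the receptor genes EDNRA and EDNRB, and ECE1, the gene of the endothelin-converting enzyme. They were picked by gene symbol from the 24616 genes of the table, and each symbol was carried by 1 row. Tissue came from healthy multiparous Nelore (Bos indicus) cows, 2 with a large follicle and a large corpus luteum (LF/LCL) and 3 with a small follicle and a small corpus luteum (SF/SCL), with 1 library from each animal. All cows were first presynchronized with injections of a GnRH agonist and a prostaglandin F2α analog. All then carried an intravaginal progesterone device and received estradiol benzoate when it was placed. They received a prostaglandin F2α analog at its removal and again some hours later, and a GnRH agonist to induce ovulation. In LF/LCL the device was removed 42 h before GnRH, and these cows had an extra injection of prostaglandin F2α analog when the device was placed. In SF/SCL the device was removed 30 h before GnRH and that extra injection was not given. The whole wall of the ampulla on the side of the corpus luteum was collected on day 4. The sequenced animals had been ranked highest (LF/LCL) or lowest (SF/SCL) within their group for follicle size, corpus luteum area and plasma steroids, so that they stand for the extremes of each group. A further LF/LCL library had been discarded by the authors because it held few reads.

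Endothelins are short peptides that are made as long precursors. The precursor is cut first by furin-type convertases and then by endothelin-converting enzyme, which releases the active peptide. Endothelin receptor A (EDNRA) is carried mainly by smooth muscle cells and pericytes, where it couples to Gq and to calcium release and drives contraction. Endothelin receptor B (EDNRB) is carried by endothelial cells, where it promotes nitric oxide release and clears endothelin, and also by smooth muscle, some epithelia and cells of the neural crest lineage. Endothelin 3 binds EDNRB more strongly than EDNRA, whereas endothelins 1 and 2 bind both. In the oviduct, endothelin is known for its actions on the contraction of the muscle layer and on blood flow.

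The libraries held from 13418278 to 19592174 reads assigned to genes. Values are normalized reads, which are the reads of a gene divided by a size factor for each library, and the number of whole reads behind a value is given where it is small. No transcript length was used, so that levels of different genes are not ranked against each other. The labelled tissue carried its defining epithelial markers, with a mean of 133230 normalized reads for OVGP1, the oviduct-specific glycoprotein, and 10480 for FOXJ1, the regulator of ciliated cells. In bulk tissue, fewer cells of a type and less RNA per cell cannot be told apart.

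EDNRB was the endothelin gene that separated the groups most clearly, with 2.63-fold more transcript in SF/SCL than in LF/LCL. ECE1 and EDN3 were higher in both LF/LCL libraries than in every SF/SCL library, by much smaller margins relative to their error. EDN1 and EDNRA overlapped between the groups, and both varied more between the LF/LCL animals than between the groups. EDN2 was near the limit of what the libraries could count.

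By limma with Benjamini-Hochberg adjustment over 15815 genes, 0 of the 5 endothelin genes tested had an adjusted p under 0.05, and 0% of all genes did. Before adjustment 2 of the 5, EDNRB and ECE1, had a p under 0.05, beside 11.5% of all genes tested (1819 genes with limma and 1828 with the edgeR quasi-likelihood test, which also called 0 genes). The groups did not overlap for 3 of the 5, beside 30.1% of all genes. Of these, EDN3 and ECE1 were higher in LF/LCL (15.0% of all genes) and EDNRB was higher in SF/SCL (15.1% of all genes). On whole reads recovered from the values, DESeq2 called 1 of the 5, EDNRB, beside 2.91% of all genes (460 genes).

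**Figure D1:**
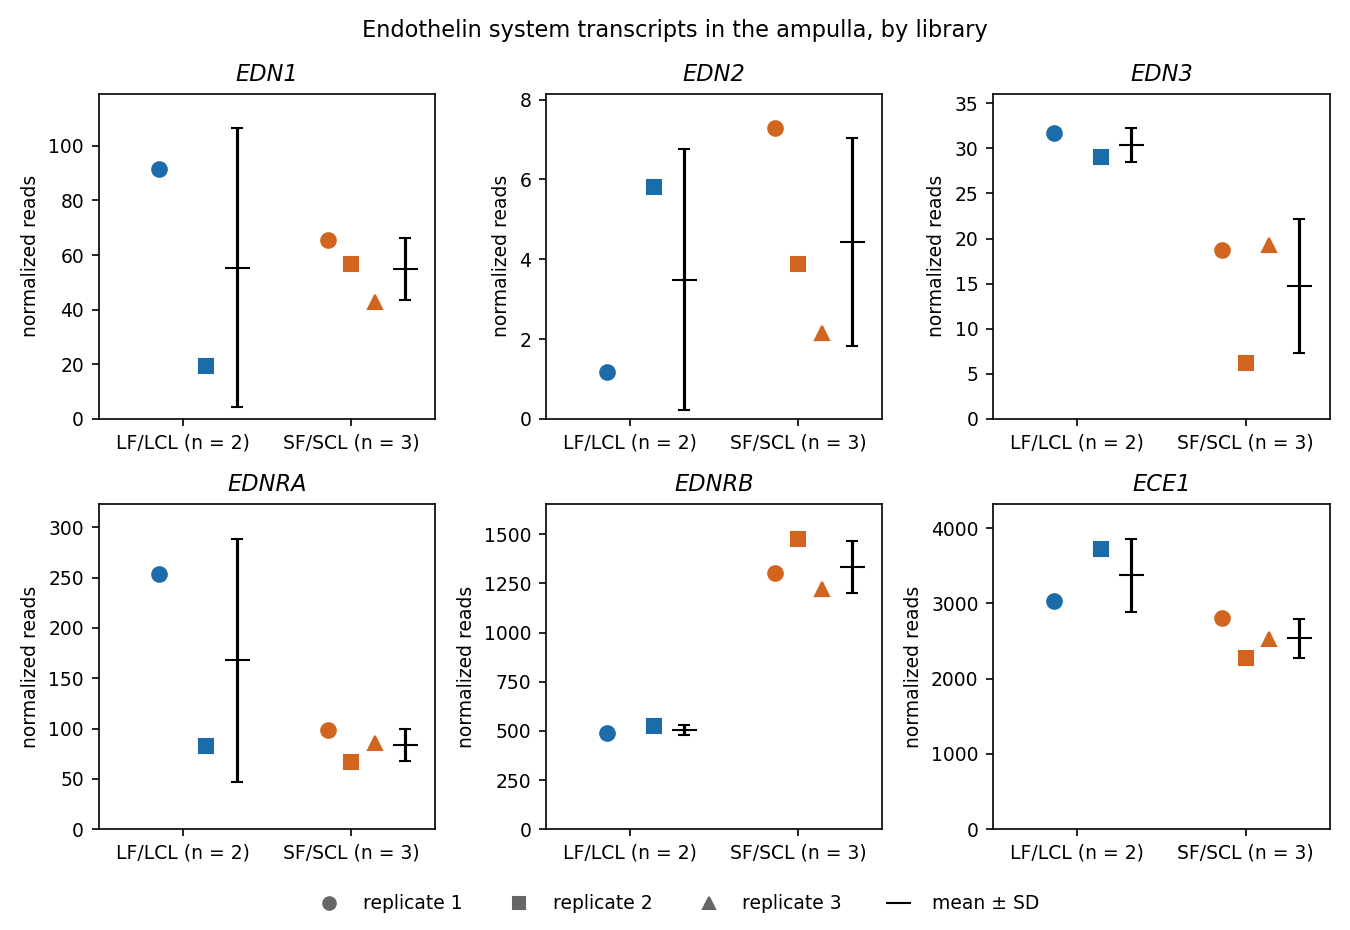
Normalized reads of each of the 6 endothelin genes (vertical axes, linear from 0) in the 2 LF/LCL libraries (blue) and the 3 SF/SCL libraries (orange), with symbols for replicates and the mean ± SD of each group in black. EDNRB lies at 488 and 523 in LF/LCL and from 1220.2 to 1478 in SF/SCL, whereas the LF/LCL points of EDN1 and EDNRA lie far apart.

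Among the ligands, EDN1 encodes endothelin 1, the main endothelin of blood vessels. It had 91.5 and 19.4 normalized reads in LF/LCL replicates 1 and 2, from 78 and 20 reads. In SF/SCL it had 65.5, 56.7 and 42.9 normalized reads, from 63, 73 and 40 reads. The LF/LCL libraries thus held both the highest and the lowest value, and the SF/SCL libraries lay between them. The group means were 55.4 ± 51.0 (SD, n = 2) and 55.1 ± 11.4 (SD, n = 3), almost equal, while the log2 fold change of LF/LCL over SF/SCL on the log2(value + 1) scale was -0.35 ± 0.67 (SE), with a 95% interval from -1.97 to 1.27 and a limma adjusted p of 0.89. The sign differs between the means and the log scale. Without LF/LCL replicate 2 the log2 fold change was 0.74, and without LF/LCL replicate 1 it was -1.44.

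EDN3 encodes endothelin 3, the EDNRB-preferring ligand that is needed for neural crest derivatives in development. It had 31.7 and 29.0 normalized reads in LF/LCL, from 27 and 30 reads, and 18.7, 6.22 and 19.3 in SF/SCL, from 18, 8 and 18 reads. Both LF/LCL libraries were above all SF/SCL libraries, and SF/SCL replicate 2 stood lowest. The means were 30.4 ± 1.86 (SD, n = 2) and 14.7 ± 7.40 (SD, n = 3). The log2 fold change was 1.14 ± 0.61 (SE), with a 95% interval from -0.36 to 2.63. By limma the unadjusted p was 0.112 and the adjusted p was 0.539, so that no difference was called. Without SF/SCL replicate 2 the log2 fold change was 0.65.

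EDN2 encodes endothelin 2, which ovarian granulosa cells are known to make around ovulation. It had 1 and 6 reads in LF/LCL and 7, 5 and 2 reads in SF/SCL, 21 reads in all, or from 1.17 to 7.28 normalized reads. Its mean of 4.06 normalized reads was under the minimum of 5 set for testing. When the minimum was lifted its log2 fold change was -0.39 ± 0.74 (SE), at an adjusted p of 0.885 by limma. A difference in EDN2 was not detectable at this depth. Of the granulosa and luteal markers, FSHR and LHCGR were listed at 0 in all 5 libraries and CYP19A1 had 1.17 normalized reads in LF/LCL replicate 1 and none in the other 4. The other 4 of the 7 markers were present, with means of 129.4 normalized reads for CYP11A1, 66.3 for STAR, 18.9 for INHA and 18.8 for AMH. CYP11A1 (-1.15) and AMH (-1.33) had negative log2 fold changes with no overlap of the groups, beside 15.1% of all genes. INHA (0.46) and STAR (0.02) had positive log2 fold changes, and their groups overlapped. The part of such cells in the EDN2 values was not tested.

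The makeup of the ligand reads also differed among animals. EDN1 took 73.6% of the reads of the 3 ligand genes in LF/LCL replicate 1 (Wilson 95% interval 64.5% to 81.0%, 106 reads) and 35.7% in LF/LCL replicate 2 (24.5% to 48.8%, 56 reads). In SF/SCL it took 71.6% (61.4% to 80.0%), 84.9% (75.8% to 90.9%) and 66.7% (54.1% to 77.3%). LF/LCL replicate 2 was the only library in which EDN3 had more reads than EDN1, with 30 against 20 reads. These intervals cover counting error only.

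The receptors were next compared. EDNRB had 488 and 523 normalized reads in LF/LCL replicates 1 and 2. In SF/SCL it had 1304, 1478 and 1220.2 normalized reads. Every SF/SCL library was far above both LF/LCL libraries, and the spread within each group was narrow, with an SD of 4.87% (LF/LCL) and 9.87% (SF/SCL) of the mean. The means were 505.3 ± 24.6 (SD, n = 2) and 1334 ± 131.6 (SD, n = 3). The log2 fold change was -1.40 ± 0.12 (SE), with a 95% interval from -1.70 to -1.09.

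No gene of the 15815 tested had a smaller limma p than EDNRB, and it also ranked 1 by p with the edgeR quasi-likelihood test and with DESeq2. Even so, its adjusted p was 0.178 with limma and 0.205 with the edgeR quasi-likelihood test, and 4.94e-13 with DESeq2. EDNRB was chosen with earlier results of these data known, so that its rank is a description. The log2 fold change ran only from -1.46 to -1.32 when each of the 5 libraries was left out in turn. A difference of at least this size, in either direction, was seen in 3.93% of all genes tested.

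EDNRA had 253.3 and 82.3 normalized reads in LF/LCL replicates 1 and 2, from 216 and 85 reads. In SF/SCL it had 98.8, 66.8 and 85.9 normalized reads, from 95, 86 and 80 reads. LF/LCL replicate 1 stood alone, and LF/LCL replicate 2 lay within the SF/SCL range. The means were 167.8 ± 120.9 (SD, n = 2) and 83.8 ± 16.1 (SD, n = 3), with a log2 fold change of 0.80 ± 0.50 (SE), a 95% interval from -0.42 to 2.01 and a limma adjusted p of 0.593. Without LF/LCL replicate 1 the log2 fold change was -0.01, and without LF/LCL replicate 2 it was 1.60, so that the value rests on 1 library.

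The balance of both receptors was read within each library, where the scaling of the libraries drops out. EDNRA took 34.2% of the receptor reads in LF/LCL replicate 1 (Wilson 95% interval 30.6% to 38.0%) and 13.6% in LF/LCL replicate 2 (11.1% to 16.5%). Across SF/SCL it took 7.04% (5.80% to 8.53%), 4.33% (3.52% to 5.31%) and 6.57% (5.31% to 8.11%). Both LF/LCL libraries were above all SF/SCL libraries, and the LF/LCL libraries also lay far from each other. The intervals cover counting error only and not the spread between animals. The log2 ratio of EDNRA to EDNRB was 2.20 higher in LF/LCL (-1.81 ± 1.22, SD, n = 2) than in SF/SCL (-4.01 ± 0.40, SD, n = 3), with a two-sided exact permutation p of 0.1. This is the smallest p that the 10 ways of choosing 2 of 5 libraries allow, so that the design cannot reach 0.05, and adjusted over the 4 ratios tested it was 0.2. The difference was 1.34 without LF/LCL replicate 1 and 3.06 without LF/LCL replicate 2. It combines the changes of both receptors and is not a separate result. Without LF/LCL replicate 1 the log2 fold change was -0.01 for EDNRA and -1.35 for EDNRB. The sum of both receptors was 741.2 and 605 normalized reads in LF/LCL, against 1403, 1545 and 1306 in SF/SCL, and most of these reads came from EDNRB.

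**Figure D2:**
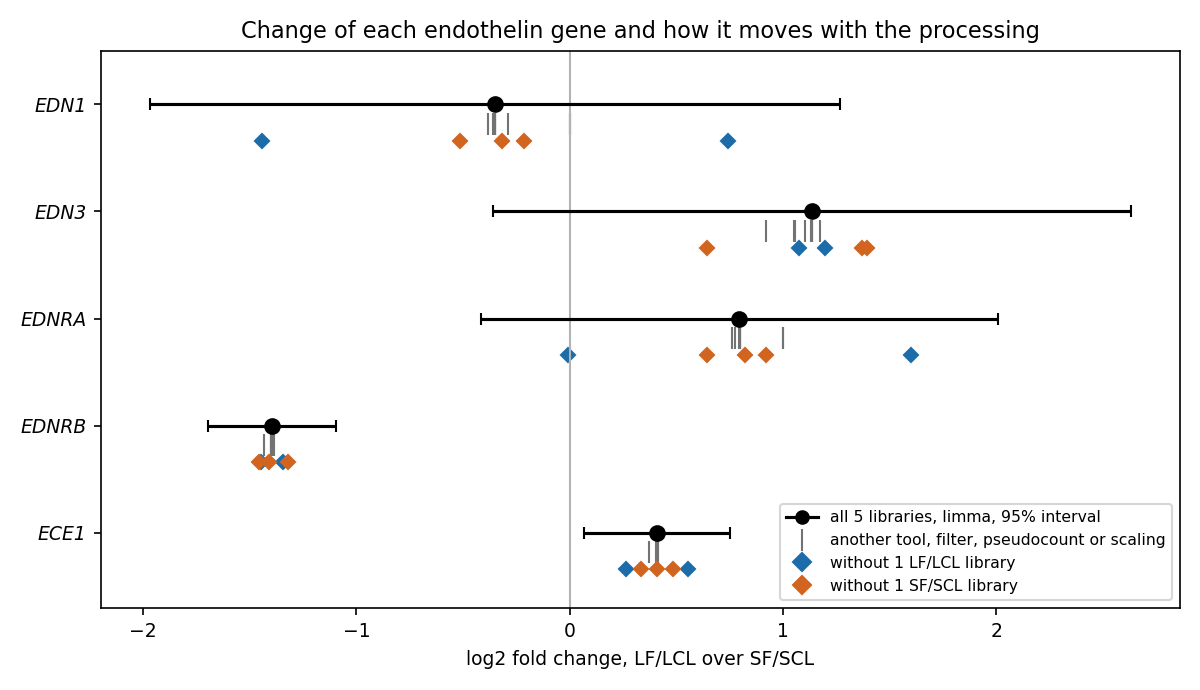
Log2 fold change of LF/LCL over SF/SCL for the 5 endothelin genes tested (horizontal axis), with the limma value and its 95% interval in black, values from another tool, filter, pseudocount or scaling as grey ticks, and values without 1 library as diamonds. EDNRB stays between -1.46 and -1.32 without any 1 library, while EDN1 moves from -1.44 to 0.74 and EDNRA from -0.01 to 1.60.

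ECE1 encodes the membrane metalloprotease that cuts big endothelin to the active peptide. It had 3034 and 3719 normalized reads in LF/LCL, against 2802, 2280.2 and 2528 in SF/SCL. Both LF/LCL libraries were above all SF/SCL libraries, although LF/LCL replicate 1 exceeded SF/SCL replicate 1 by a small margin. The means were 3376 ± 484.2 (SD, n = 2) and 2537 ± 261 (SD, n = 3). The log2 fold change was 0.41 ± 0.14 (SE), with a 95% interval from 0.07 to 0.75, an unadjusted limma p of 0.0259 and an adjusted p of 0.371. DESeq2 gave an adjusted p of 0.217. With LF/LCL replicate 2 left out the log2 fold change was 0.26, and with LF/LCL replicate 1 left out it was 0.56.

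Since EDNRA is carried by smooth muscle and pericytes, its values were set beside markers of these cells. Of the 10 smooth muscle markers listed, 9 were found by symbol, and all 9 had a positive log2 fold change (median 1.47, against 0.01 over all genes tested). With limma, 0 of the 9 had an adjusted p under 0.05 and 8 had an unadjusted p under 0.05, beside 11.5% of all genes. DESeq2 called 4 of the 9, DES, LMOD1, TAGLN and PLN, beside 2.91% of all genes. Their sum was 111521 and 56335 normalized reads in LF/LCL and from 14344 (SF/SCL replicate 3) to 37964 in SF/SCL. The markers with the most reads were ACTA2, a smooth muscle actin (log2 fold change 1.67 ± 0.59, SE), MYH11, the smooth muscle myosin heavy chain (1.47 ± 0.53), and DES, the intermediate filament desmin (1.76 ± 0.45). LF/LCL replicate 1 held the highest value of both EDNRA and the marker sum. In units of the marker sum, EDNRA was 0.227% and 0.146% in LF/LCL, against 0.288%, 0.176% and 0.599% in SF/SCL, with overlapping groups and the opposite direction. The log2 difference was -0.78 (exact permutation p = 0.4, and 0.533 adjusted over the 4 ratios). When 1 library was left out it ran from -1.19 (SF/SCL replicate 2) to -0.31 (SF/SCL replicate 3), and it was -0.46 without LF/LCL replicate 2 and -1.10 without LF/LCL replicate 1. The part of smooth muscle content in the EDNRA values was not tested further.

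Of the 6 pericyte markers, 5 had a positive log2 fold change (median 0.51, against 0.01 over all genes tested). For 1 of the 6, CSPG4, both LF/LCL libraries were above all SF/SCL libraries, beside 15.0% of all genes. The sum of the 6 markers overlapped between the groups, with 5484 and 2905 normalized reads in LF/LCL, against 3634, 2070 and 4759 in SF/SCL. An unadjusted limma p under 0.05 was found for 0 of the 6. In units of the pericyte sum, a comparison chosen after the data were seen, EDNRA was 4.62% and 2.83% in LF/LCL, against 2.72%, 3.23% and 1.80% in SF/SCL, a log2 difference of 0.53 (exact permutation p = 0.4).

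EDN1, ECE1 and EDNRB are all made by endothelial cells, so blood endothelial markers were read next. Of the 10 listed, 9 were found, and PECAM1 was not analysed here. In LF/LCL 5 of the 9 were higher and 4 lower, with a median log2 fold change of 0.10. The sum was 8472 and 5230 normalized reads in LF/LCL, against 6846, 6212 and 9236 in SF/SCL, an overlap of the groups. The markers with the most reads were KDR, the VEGF receptor (-0.75 ± 0.16, SE, with a limma adjusted p of 0.248), VWF, the von Willebrand factor (-0.01 ± 0.39), and EMCN, endomucin (0.58 ± 0.39). Only KDR among the 9 had an unadjusted limma p under 0.05, beside 11.5% of all genes, or was called by DESeq2, beside 2.91%. It was higher in all SF/SCL libraries, as EDNRB was, beside 15.1% of all genes.

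In units of the endothelial sum, EDNRB was 5.76% and 9.99% in LF/LCL, against 19.0%, 23.8% and 13.2% in SF/SCL. No overlap was seen, and the log2 difference was -1.26 (exact permutation p = 0.1, the smallest possible, and 0.2 adjusted over the 4 ratios). With the geometric mean of the endothelial markers in place of their sum, the log2 difference was -1.485 (exact permutation p = 0.2). EDN1 was 1.08% and 0.37% of the sum in LF/LCL, against 0.957%, 0.913% and 0.465% in SF/SCL, with a log2 difference of -0.23 (exact permutation p = 0.7) that was 0.54 without LF/LCL replicate 2. EDN1 thus varied between the LF/LCL animals also in units of the endothelial markers.

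Markers of ciliated cells had the sign of EDNRB. All 10 had a negative log2 fold change (median -0.55), and 8 had an unadjusted limma p under 0.05, beside 11.5% of all genes. An adjusted p under 0.05 was found for 0 of the 10 with limma and for 3 with DESeq2, beside 2.91% of all genes with DESeq2. Their sum was 42542 and 54611 normalized reads in LF/LCL and from 65331 to 66187 in SF/SCL. In units of this sum, a comparison chosen after the data were seen, EDNRB was 1.15% and 0.957% in LF/LCL, against 1.97%, 2.26% and 1.85% in SF/SCL, and the groups again did not overlap (log2 difference -0.95, exact permutation p = 0.1). Which cells carried EDNRB was not tested. Markers of the neural crest derivatives that carry EDNRB, Schwann cells and melanocytes, had no common direction. DCT was listed at 0 in all libraries, and SOX10 had a mean of 14.9 normalized reads. The sum of this list of 8 genes ran from 33496 to 40782 in LF/LCL and from 15365 to 24846 in SF/SCL, and most of it came from S100B, whose log2 fold change of 1.18 was opposite to that of EDNRB. MITF, a regulator of melanocytes, had the sign of EDNRB, with 161.8 and 123.9 normalized reads in LF/LCL and from 181.9 to 259.7 in SF/SCL (log2 fold change -0.66), and TYR, an enzyme of pigment synthesis with a mean of 11.3 normalized reads, had a log2 fold change of -0.65.

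**Figure D3:**
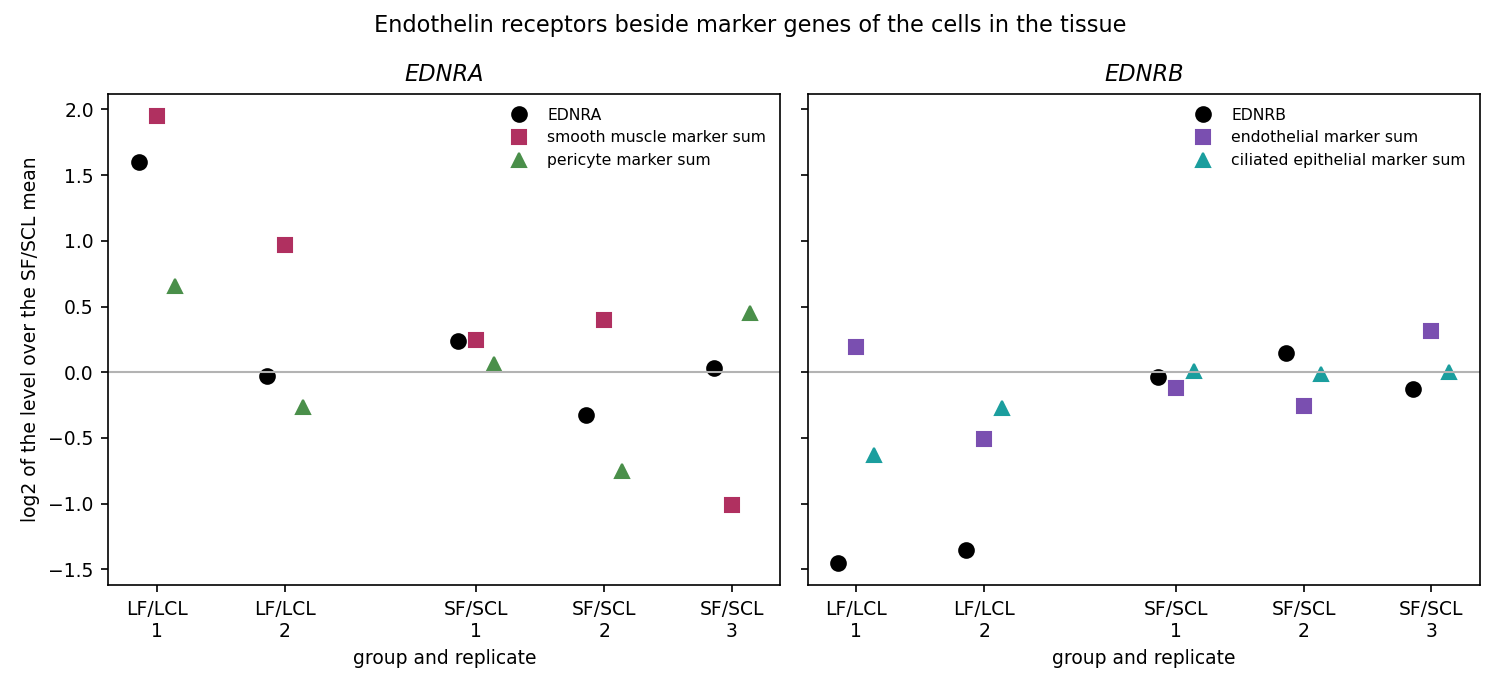
Log2 of each level over its SF/SCL mean (vertical axis) in each library (horizontal axis), for EDNRA with the summed smooth muscle and pericyte markers (left) and for EDNRB with the summed endothelial and ciliated epithelial markers (right). EDNRA and the smooth muscle sum are both highest in LF/LCL replicate 1, whereas EDNRB in LF/LCL lies below its SF/SCL values by more than either marker sum does.

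Other genes of the endothelin pathway were followed from a list of 42 genes, all found by symbol on 43 rows, of which 40 had a mean value over 5. The list showed no common direction, with 19 rows at a positive and 21 at a negative log2 fold change, and a median log2 fold change of -0.01 (0.01 over all genes tested). With limma 0 had an adjusted p under 0.05. An unadjusted p under 0.05 was found for 7 of 40, beside 11.5% of all genes. Of the 7, 4 had the higher level in LF/LCL and 3 in SF/SCL. DESeq2 called 1 of the 40, beside 2.91% of all genes. The count of 7 was 1 without LF/LCL replicate 1, and 4 without SF/SCL replicate 2 or without SF/SCL replicate 3.

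Upstream of the ligands, the 4 propeptide convertases all had positive log2 fold changes, from 0.10 to 0.60, and FURIN, named after its values were seen, averaged 1805 ± 437.1 (SD, n = 2) in LF/LCL against 1254 ± 99.7 (SD, n = 3) in SF/SCL, as normalized reads (log2 fold change 0.51 ± 0.17, SE, limma adjusted p = 0.362). ECE2, a relative of ECE1, had a log2 fold change of 0.18 ± 0.21. The related proteases ECEL1 and KEL had at most 3.11 normalized reads in any library. MME (neprilysin) and CTSA (cathepsin A), which break endothelin down, had log2 fold changes of -0.00 ± 0.27 and 0.08 ± 0.09.

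Downstream of the receptors, the genes with the smallest p that were higher in LF/LCL were GNAI2, PLCB1 and GUCY1A1. GNAI2, an inhibitory G protein subunit, had 5440.5 and 5442 normalized reads in LF/LCL and from 4131 to 4463 in SF/SCL. Its log2 fold change was 0.35 ± 0.09 (SE) with an adjusted p of 0.307 with limma and 0.0384 with DESeq2. That was the only DESeq2 call in the list, beside 2.91% of all genes. PLCB1, a phospholipase C of the Gq route, had a log2 fold change of 0.88 ± 0.28. GUCY1A1, a subunit of the nitric oxide receptor guanylate cyclase, had 2103 and 1766 normalized reads in LF/LCL and from 659.2 to 1463 in SF/SCL, with a log2 fold change of 1.04 ± 0.33. The genes with the smallest p that were higher in SF/SCL were GRK3, a kinase that desensitizes receptors (listed as ADRBK2, -0.37 ± 0.13), PRKCE, a protein kinase C (-0.48 ± 0.19), and ITPR3, a calcium release channel (-0.42 ± 0.17). The limma adjusted p of these last 5 genes ran from 0.35 (PLCB1) to 0.43 (ITPR3). NOS3, the endothelial nitric oxide synthase, had a log2 fold change of -0.11 ± 0.45.

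**Figure D4:**
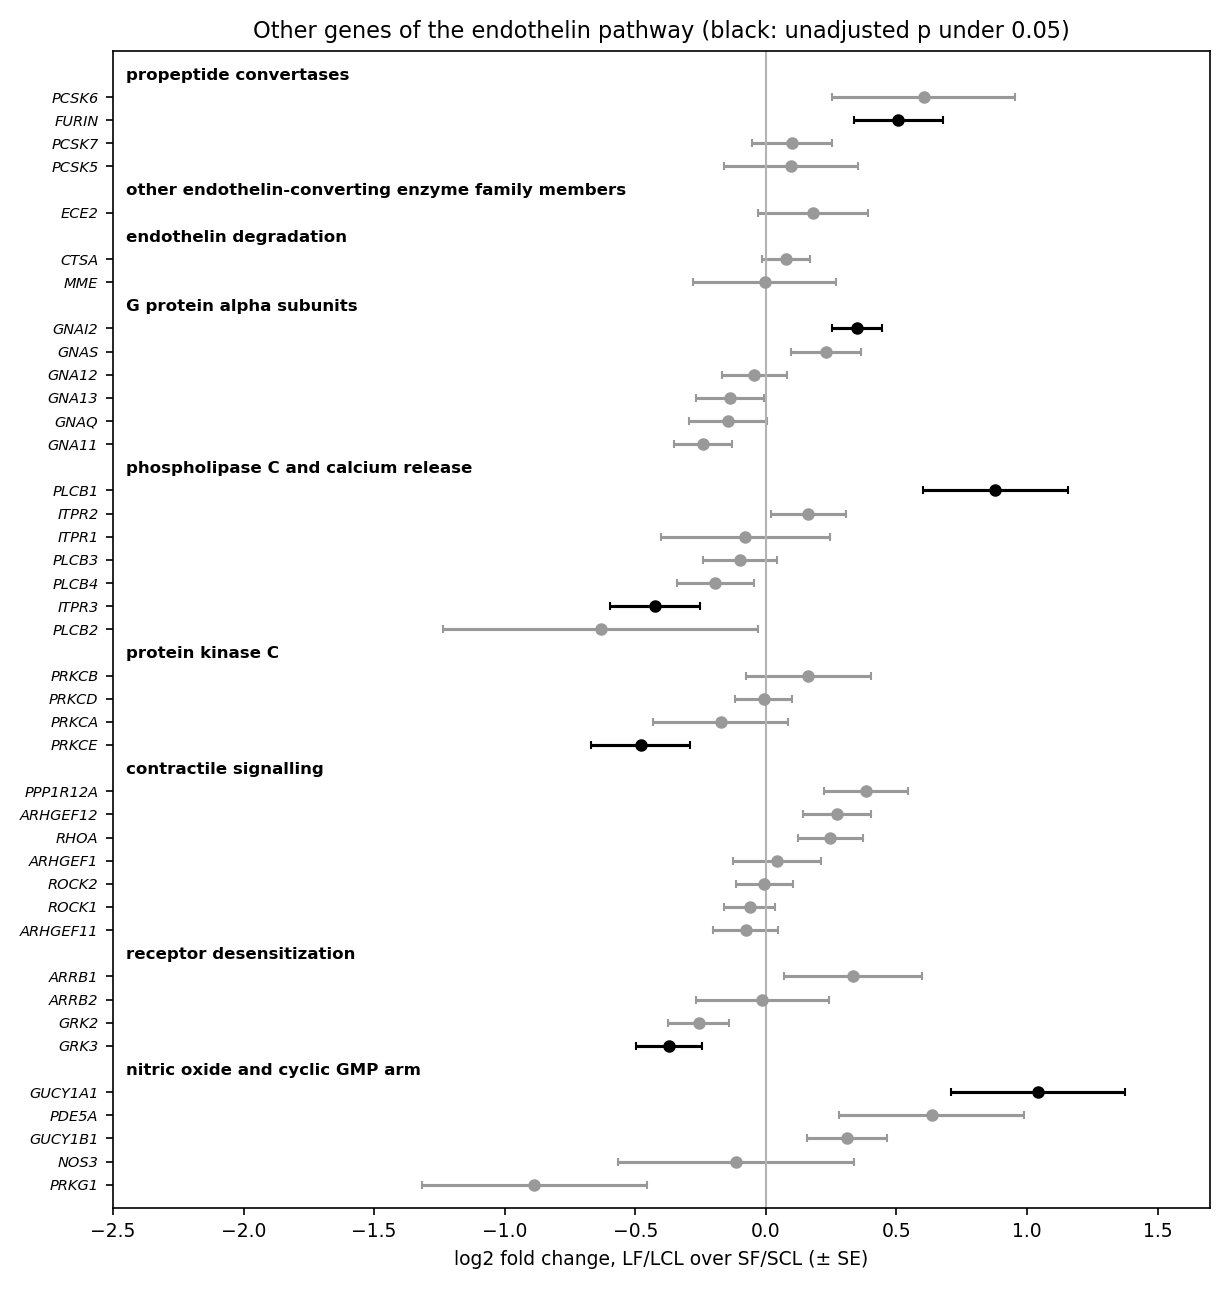
Log2 fold change ± SE of LF/LCL over SF/SCL (horizontal axis) for the 40 tested rows of the pathway list, grouped by role, with black points for an unadjusted limma p under 0.05. The points lie on both sides of 0, from -0.89 (PRKG1) to 1.04 (GUCY1A1), and 7 are black.

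To place the patterns among other genes, the genes whose log2 deviations over the 5 libraries lay nearest to each endothelin gene were listed among 11692 genes with a mean of at least 50 normalized reads. For EDNRB these were KCNA5, a voltage-gated potassium channel, TIGD4 and DERL3, a protein of endoplasmic reticulum degradation, with root mean square differences of 0.16, 0.18 and 0.19 on the log2 scale. KCNA5 had 103.2 and 105.5 normalized reads in LF/LCL and from 268.2 to 391.7 in SF/SCL. For EDNRA they were ABCC9, a potassium channel regulator that was also on the pericyte list, ADAMTS2, a procollagen protease, and SFXN3 (0.08, 0.12 and 0.13). ABCC9 followed EDNRA closely, with 389.4 and 129.7 normalized reads in LF/LCL, against 170.5, 107.2 and 152.4 in SF/SCL. For EDN1 they were PCDHB16, whose gene family has close copies that can split reads, TMEM107 and VEPH1 (0.13, 0.22 and 0.27). For ECE1 they were SOWAHB, POLR2K and TBX2 (0.03, 0.03 and 0.05). Nearness over 5 libraries is a description, and many genes with a similar rank order of libraries can be found by it.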

How the data were processed

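The authors trimmed read pairs with seqyClean, aligned them with TopHat2 2.0.8 and Bowtie2 2.1.0 to the masked UMD cattle assembly, sorted them with SAMtools 0.1.18, and counted uniquely mapped reads per Ensembl gene with HTSeq 0.5.4p2. Whether strand was used in counting is not given in the sources used here, so overlapping genes are uncertain. The deposited values are a normalized signal, reads divided by the DESeq 1.12.1 size factor of each library. Within each library the nonzero values were whole multiples of what 1 read is worth (100% within a tolerance of 0.1 reads), which gave back whole reads. The table gives no coordinates and no sequences, and none are printed.

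All fits covered the whole table. The main test was limma 3.58.1 on log2(value + 1) with trend and robust estimation, for genes with a mean value over 5, with Benjamini-Hochberg adjustment and a two-sided threshold of 0.05, and no covariates. The edgeR 4.0.16 quasi-likelihood test with TMM and DESeq2 1.42.0 were run on the recovered reads. Fold changes are LF/LCL over SF/SCL and understate changes of genes with low values. The study tested with the first DESeq version and also asked that the mean exceed the SD, which was tried as an alternative. DESeq2 gave no adjusted p for 614 genes. Ratios within a library were compared by exact two-sided permutation over libraries, the share of 10 assignments with a difference at least as large. Replicates are separate animals, numbered in order of deposit.

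The genes studied, the pathway list, the marker lists (smooth muscle, endothelial, lymphatic, pericyte, secretory, ciliated, stromal, glial and melanocyte, immune, mesothelial, granulosa and luteal, blood) and the tests were chosen with earlier results of these data known. Named genes are the endothelin genes, up to 3 pathway genes per direction with the smallest p and a mean value of at least 50, the 3 genes with the most reads in the smooth muscle and endothelial lists, and the 3 genes nearest to each endothelin gene with a mean of at least 50 by root mean square difference of log2(value + 1) deviations. Other genes are named to describe a list. Values of some single genes of these lists are not reported here.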

Additional observations from a re-analysis of the deposited data

How the results depend on the processing

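Among the alternatives, the pericyte and ciliated sums as denominators were chosen after seeing the data. With DESeq2 the 0 genes called became 460 and the pathway count of 0 became 1, and EDNRB passed with that tool at a log2 fold change of -1.40 (adjusted p 4.94e-13), against an adjusted p from 0.143 to 0.339 over its 13 other alternatives. The cause was not tested. EDN1 went from -0.35 to 0.00064 with the edgeR quasi-likelihood test and 0.0033 with DESeq2, and from -1.44 to 0.74 when 1 library was left out. EDNRA ran from -0.0086 to 1.60 when 1 library was left out. In units of a marker sum, EDNRA went from -0.78 to 0.53 with the pericyte sum, and EDN1 ran from -1.0 to 0.54 when 1 library was left out. The pathway count of 7 with an unadjusted p under 0.05 ran from 1 to 9 across those fits. EDN3 and ECE1 were higher in LF/LCL, and EDNRB lower, in all 14 alternatives of each. Leaving out 1 library could not change these signs, because the groups did not overlap for these genes. Of the genes with an unadjusted p under 0.05, 49.0% were higher in LF/LCL, and 39.5% with library size scaling. In all its fits limma assumed that a gene varies alike in both groups. Where LF/LCL kept 1 library, the spread within groups came from the SF/SCL libraries only. No paired analysis applied, because each library came from a different animal. Depth limits EDN2 (21 reads in all) and EDN3.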

Other observations

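Other cell type lists were read for the makeup of the tissue beside the endothelin genes, with counts of genes at an unadjusted limma p under 0.05, beside 11.5% of all genes. With limma 0 had an adjusted p under 0.05 in each of these lists. DESeq2 called 3, PAX8 (secretory), IL2RG (immune) and S100B (glial), beside 2.91% of all genes. The secretory epithelial markers had 3 of 6 higher in LF/LCL (median log2 fold change 0.31). OVGP1 (-0.07) and MSX1 (-0.24) had negative log2 fold changes, and the secretory sum overlapped between the groups. That sum was 169371 and 143824 normalized reads for LF/LCL, and it ran from 142152 to 169603 for SF/SCL. The immune markers had 4 of 7 higher in LF/LCL (median 0.44). In contrast, CD68 (-0.70) was higher in all SF/SCL libraries, and CD14 (-0.46) was negative with overlapping groups. The stromal fibroblast markers had a median of 0.73 with 0 of 7, and their sum ran from 29554 to 72110 normalized reads in LF/LCL, against from 18850 to 40929 in SF/SCL, highest in LF/LCL replicate 1, the library with the highest EDNRA and EDN1. The lymphatic endothelial markers had 1 of 4 higher in SF/SCL (median -0.10), the mesothelial markers 0 of 4 tested (median -0.52), and the glial and melanocyte markers 1 of 6 tested in each direction. Of the granulosa and luteal markers 4 of 7 were tested, and 2, AMH and CYP11A1, were higher in SF/SCL. INHA and STAR had positive log2 fold changes. The blood marker sum was 506.6 and 65.8 normalized reads in LF/LCL, against 21.8, 235.5 and 18.2 in SF/SCL, and the groups overlapped. The part of these cells in the endothelin values was not tested.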
